A study of Mus musculus with 10 samples.

Results

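Integrins are the receptors by which cells hold on to the extracellular matrix, and fibronectin is 1 of the matrix proteins they bind. Described here are 8 genes chosen by symbol: Fn1, which encodes fibronectin, the beta subunit genes Itgb1 and Itgb5, and the alpha subunit genes Itga3, Itga5, Itga6, Itgav and Itga9. All 8 were found among the 31053 genes counted, and 6 of them passed the filter on low counts, which left 11215 genes for testing. Itga5 and Itga9 stayed under it with all 10 libraries and are given as read counts.

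The cells were E14 mouse embryonic stem (ES) cells with a stably transfected Esrrb construct that doxycycline (DOX) induces. Esrrb encodes an orphan nuclear receptor that helps hold ES cells in the naive state. The 96 h DOX group (3 libraries) was seeded at single-cell density on gelatin in 2iL and, the day after, moved to plain N2B27 medium with DOX for 96 h. The 96 h no DOX group (3 libraries) went through the same steps without DOX. The 2iL group (4 libraries) was kept without DOX in N2B27 with LIF, PD0325901 (1 µM), which inhibits MEK, and CHIR99021 (3 µM), which inhibits GSK3. All 3 groups carried the construct. Cells given DOX in 2iL and cells without the construct were not analysed here, so effects of DOX itself and of the construct cannot be told apart in these comparisons. Whether the line is a clone is not stated in the labels.

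An integrin is a pair of 1 alpha and 1 beta chain, and the pair sets the ligand. Itga3 and Itga6 pair with Itgb1 into laminin receptors. Itga5 pairs with Itgb1 into the main fibronectin receptor, which reads the RGD motif, and Itgav pairs with Itgb1 or Itgb5 into receptors of fibronectin and vitronectin. Itga9 pairs with Itgb1 and binds tenascin and osteopontin. In the mouse embryo, loss of Itgb1 is lethal soon after implantation, at the stage when epiblast cells rest on a laminin-rich basement membrane. Mouse ES cells are known for high levels of the laminin receptor that contains Itga6.

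The libraries were 3′ digital gene expression libraries, in which reads come from transcript ends, and each held 1253620 to 4715450 reads in genes. Libraries are named by experiment and number, as exp1_2 for the library numbered 2 of experiment 1. Levels are CPM (reads scaled to the library's total in genes) after TMM scaling, a correction for library composition. The smallest library, 96 h DOX exp1_2, stood apart. It held 14.8% of its reads in Gm42418 (3.39% to 6.61% elsewhere), a gene that overlaps the ribosomal RNA locus. Mitochondrial protein genes took 3.10% of its reads (0.559% to 1.27% elsewhere), and ribosomal protein genes 7.48% (14.0% to 17.7% elsewhere). Macrophage markers (6 genes) summed to 67.01 CPM there, without TMM scaling, and to 12.01 and 9.30 CPM in the other 96 h DOX libraries. A list of 10 fibroblast markers summed to 2131 CPM there, without TMM scaling, against 18.3 and 30.2 CPM in the other 96 h DOX libraries, 21.5 to 27.9 CPM in the 96 h no DOX libraries and 2.72 to 10.5 CPM in 2iL. DOX means of the 6 tested genes are therefore given with and without that library. Esrrb reads, a check on the construct only if its transcript carries the native 3′ end, which the labels do not say, stood at 12.8, 27.0 and 14.7 CPM with DOX, 23.8, 13.6 and 32.0 CPM without DOX, and 229 to 378 CPM in 2iL. The labels do not say that libraries of a group came from separate cultures, so p-values measure the spread between these libraries only. In bulk RNA, fewer cells of a type and less RNA per cell cannot be told apart.

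At 96 h, with or without DOX, the laminin-receptor genes Itga3 and Itga6 were higher than in 2iL, and Fn1 was lower. These 3 genes passed the test in both comparisons with 2iL, and the other 3 tested genes did not. Between 96 h DOX and 96 h no DOX no listed gene passed. Itga6 came nearest there, with all 3 DOX libraries above all 3 no DOX libraries. The test was the quasi-likelihood test of edgeR, with Benjamini-Hochberg adjustment over all 11215 genes, and a gene was called at an adjusted p below 0.05. Log2 fold changes are given ± their standard error (SE), and levels ± SD over libraries.

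**Figure D1:**
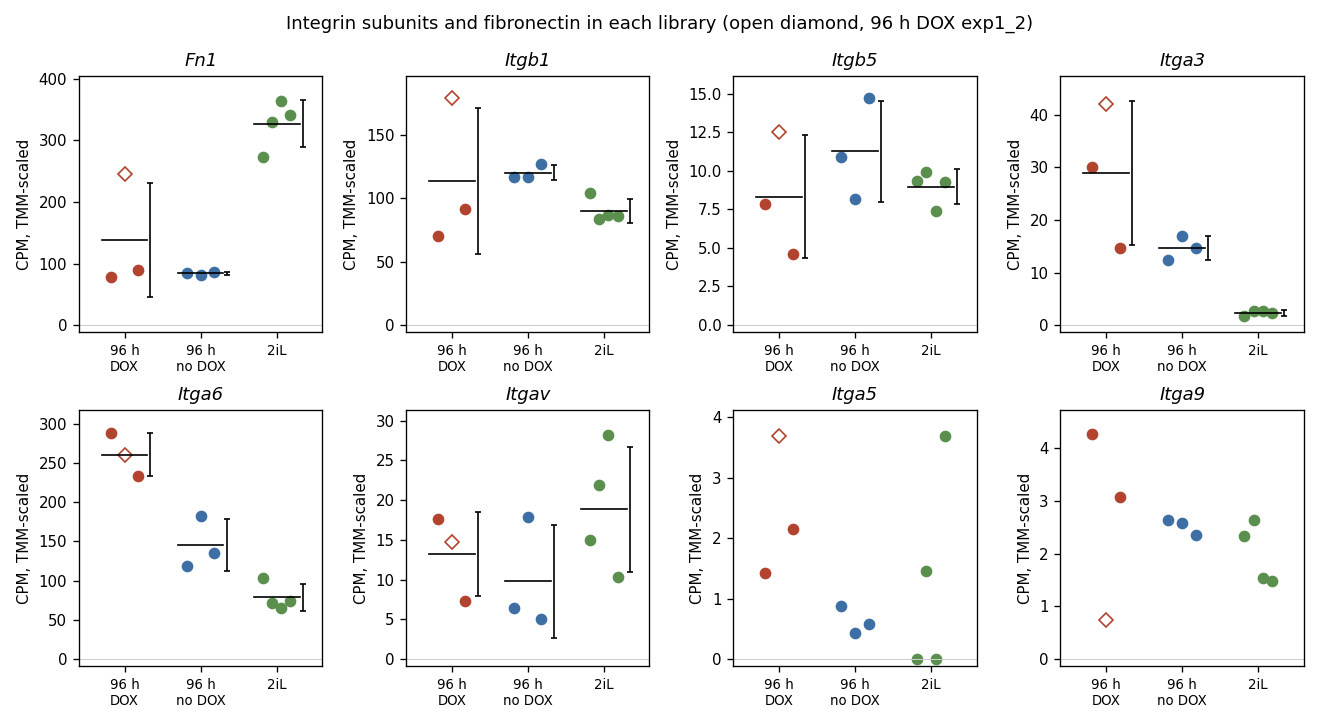
Each panel shows 1 gene, with 1 point per library and the level in TMM-scaled CPM on the vertical axis. Points are ordered 96 h DOX, 96 h no DOX and 2iL, the line is the group mean and the bar is ± SD, and neither is drawn for Itga5 and Itga9, which stayed under the count filter. The open diamond is 96 h DOX exp1_2, at 245 CPM for Fn1 while the other DOX libraries are at 78.9 and 90.0 CPM.

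Fn1 (ENSMUSG00000026193, GRCm38 chromosome 1, 71585520 to 71653200, minus strand) stood at 78.9, 90.0 and 245 CPM in the 96 h DOX libraries exp1_1, exp2_1 and exp1_2. The 96 h no DOX libraries exp1_1, exp1_2 and exp2_2 had 84.6, 81.7 and 86.4 CPM. The 2iL libraries exp1_1, exp1_2, exp2_1 and exp2_2 had 273, 330.2, 363 and 341 CPM. All 6 libraries at 96 h were below all 4 in 2iL, and with DOX exp1_1 and exp2_1 lay just to either side of the no DOX range while exp1_2 was far above it. The means were 138 ± 92.6 CPM with DOX (84.5 ± 7.88 CPM without exp1_2, n = 2), 84.2 ± 2.34 CPM without DOX and 327 ± 38.3 CPM in 2iL. Without DOX, Fn1 fell by 1.96 ± 0.31 on the log2 scale against 2iL (adjusted p = 9.93e-05, edgeR), and of all tested genes 14.8% had no DOX libraries wholly below 2iL. With DOX the log2 fold change over 2iL was -1.27 ± 0.31 (adjusted p = 0.00625, edgeR), and 13.3% of tested genes lay wholly below 2iL there. Leaving out exp1_2 made that change -1.96 (adjusted p = 1.39e-06, edgeR). Within experiment 1 alone, where exp1_2 is 1 of 2 DOX libraries, it was -0.90 and did not pass (adjusted p = 0.214, edgeR). Over 20 alternative settings its adjusted p lay between 1.39e-06 and 0.214.

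Between DOX and no DOX, the Fn1 difference rested on exp1_2. Its log2 fold change was 0.69 ± 0.32 with all libraries (95% interval 0.02 to 1.35, adjusted p = 0.309, edgeR) and 0.00 without exp1_2 (adjusted p = 0.999, edgeR). In that library all 10 fibroblast markers had reads, against 8 in each other DOX library and 7 to 9 in the no DOX libraries. Postn, a secreted fibroblast protein, had 55.3 CPM there and 0 reads in the other 9 libraries, and the collagen genes Col1a2 and Col1a1 had 1189.8 and 549.6 CPM. Not all markers stood out. Lum (0.737 CPM) and Fbn1 (7.37 CPM) lay inside their no DOX ranges, which reached 1.47 and 8.63 CPM. Thy1, at 15.5 CPM, was just above its no DOX range, which reached 14.2 CPM. Markers of extraembryonic endoderm (10 genes) summed, without TMM scaling, to 860, 808 and 2203 CPM with DOX in exp1_1, exp2_1 and exp1_2, against 251 to 452 CPM without DOX and 342 to 527 CPM in 2iL. Sparc was the largest part of the exp1_2 sum, at 1535 CPM after TMM scaling, against 498 ± 81.8 CPM in the other DOX libraries. Its DOX over no DOX change did not pass without exp1_2 (adjusted p = 0.219, edgeR). Gata6 had 61.1 CPM in exp1_2 against 46.4 ± 1.28 CPM in the other DOX libraries. Also higher in exp1_2 were Pdgfra (81.8 against 20.7 ± 4.03 CPM), Dab2 (51.6 against 23.8 ± 6.77 CPM) and Lama1 (50.1 against 21.4 ± 2.01 CPM). The same held for Col4a1 (221 against 168 ± 16.6 CPM) and Gata4 (14.7 against 3.66 ± 0.472 CPM). Foxa2 lay between the other DOX libraries, and Sox17 was lowest in exp1_2, at 7.37 CPM. Fibroblasts and extraembryonic endoderm are both known to make fibronectin. The part of these markers' cells in the Fn1 level of exp1_2 was not tested, and the log2 fold change of DOX over no DOX was 0.00 without that library.

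**Figure D2:**
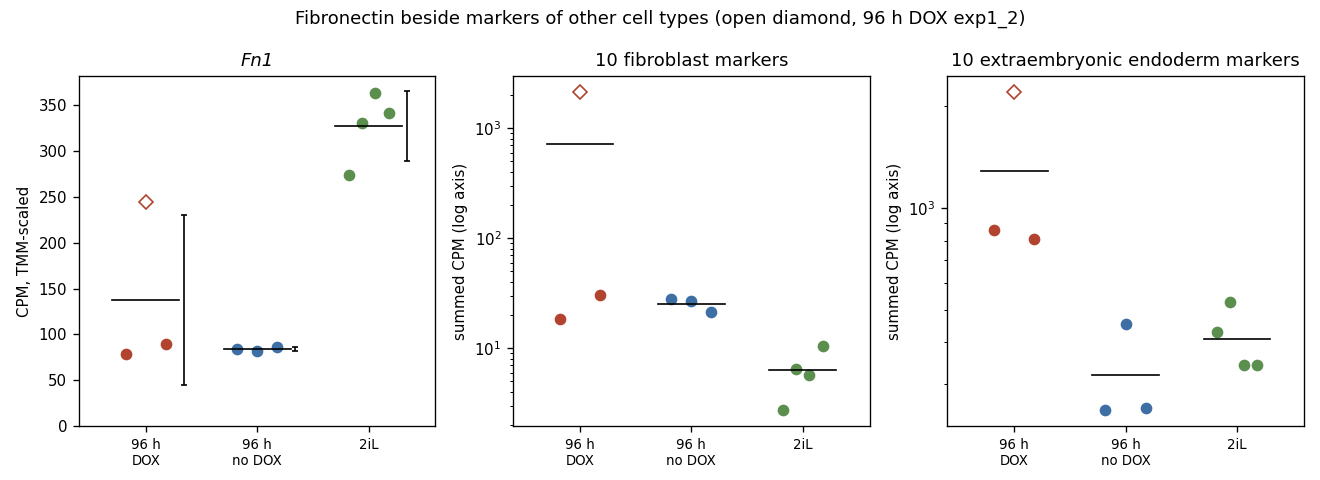
The left panel plots Fn1 in TMM-scaled CPM, with group means and ± SD, and the others plot the summed CPM of 10 fibroblast and 10 extraembryonic endoderm markers on log axes, with group means as lines. Points are libraries. The open diamond, 96 h DOX exp1_2, is the highest DOX library in all 3 panels, at 245 CPM of Fn1, 2131 CPM of fibroblast markers and 2203 CPM of endoderm markers. Among the endoderm markers, Sparc had 1535 CPM in that library after TMM scaling.

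Itga6 (ENSMUSG00000027111, chromosome 2, 71745616 to 71858416), a laminin-binding alpha chain, was the listed gene with the clearest order of groups. Its level was 288, 233 and 261 CPM in the DOX libraries exp1_1, exp2_1 and exp1_2. Without DOX it was 119, 183 and 135 CPM in exp1_1, exp1_2 and exp2_2, and in 2iL it was 104, 71.6, 65.4 and 74.3 CPM in exp1_1, exp1_2, exp2_1 and exp2_2. No library of any group reached into the range of the next group. The means were 261 ± 27.3 CPM with DOX (261 ± 38.6 CPM without exp1_2), 146 ± 33.1 CPM without DOX and 78.8 ± 17.1 CPM in 2iL. Against 2iL, Itga6 rose by 1.73 ± 0.23 with DOX (adjusted p = 1.87e-05, edgeR) and by 0.89 ± 0.22 without DOX (adjusted p = 0.00668, edgeR), both on the log2 scale. Groups wholly above 2iL were found for 14.3% of tested genes with DOX and for 16.1% without.

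DOX over no DOX gave Itga6 a log2 fold change of 0.84 ± 0.24 (95% interval 0.34 to 1.34). The adjusted p was 0.0651 with edgeR's quasi-likelihood test (0.0023 before adjustment), so the difference did not pass. Leaving out exp1_2 gave the same 0.84 (adjusted p = 0.0731, edgeR). The DOX libraries were wholly above the no DOX libraries for 9.98% of tested genes with all libraries and for 14.1% without exp1_2. Itga6 did pass with DESeq2 (0.84, adjusted p = 0.0199), with upper quartile scaling (0.89, adjusted p = 0.0422, edgeR) and without the no DOX library exp1_2 (1.04, adjusted p = 0.0404, edgeR). The adjusted p ranged from 0.0199 to 0.375 over 20 alternatives. That no DOX library, the highest of its group, also carried the difference from 2iL across the threshold, since without it the rise was 0.69 (adjusted p = 0.0526, edgeR). Within experiment 1 the rise without DOX was 0.77 (adjusted p = 0.195, edgeR), and over 20 alternatives its adjusted p lay between 0.00140 and 0.195.

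Itga3 (ENSMUSG00000001507, chromosome 11, 95044474 to 95076801, minus strand), the other laminin-binding alpha chain, was low in 2iL. Libraries with DOX had 30.2, 14.8 and 42.0 CPM in exp1_1, exp2_1 and exp1_2. Those without DOX had 12.3, 17.0 and 14.7 CPM in exp1_1, exp1_2 and exp2_2. In 2iL it had 1.67, 2.63, 2.76 and 2.22 CPM, from 5, 9, 9 and 6 reads. Every library at 96 h was above every 2iL library, while the DOX and no DOX ranges overlapped. Of all tested genes, 14.3% with DOX and 16.1% without DOX lay wholly above 2iL. Itga3 passed the count filter on its 96 h reads alone, so its place among the tested genes already rested on the groups where it was high. Means were 28.97 ± 13.7 CPM with DOX (22.5 ± 10.9 CPM without exp1_2), 14.7 ± 2.35 CPM without DOX and 2.32 ± 0.495 CPM in 2iL. Over 2iL, Itga3 rose by 3.59 ± 0.44 with DOX (adjusted p = 8.00e-06, edgeR) and by 2.64 ± 0.43 without DOX (adjusted p = 0.000138, edgeR) on the log2 scale. The rise with DOX was 3.25 without exp1_2 (adjusted p = 3.31e-05, edgeR).

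DOX over no DOX gave Itga3 0.95 ± 0.41 (95% interval 0.10 to 1.81, adjusted p = 0.263, edgeR), and 0.61 without exp1_2 (adjusted p = 0.667, edgeR). The experiments gave different sizes, 1.28 in experiment 1 and 0.01 in experiment 2, where 1 library stood in each 96 h group. Itga6 had 0.86 and 0.78 in the same fit. Summed endoderm markers were higher with DOX in every library, as given above, and laminin receptors are known in that tissue. Their part in the Itga6 and Itga3 levels was not tested.

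The promoter of Itga3 is printed because the gene was called in both comparisons with 2iL, and that of Itgb1 because it is the shared partner that was not called. Both are 300 bases of RefSeq (GRCm38.p6), 250 before and 50 after the annotated start, written in the direction of the gene, with GGGCGG or its complement CCGCCC in capitals. The Itga3 window is chr11:95076665-95076964 on the minus strand and the Itgb1 window is chr8:128685404-128685703 on the plus strand.
Itga3: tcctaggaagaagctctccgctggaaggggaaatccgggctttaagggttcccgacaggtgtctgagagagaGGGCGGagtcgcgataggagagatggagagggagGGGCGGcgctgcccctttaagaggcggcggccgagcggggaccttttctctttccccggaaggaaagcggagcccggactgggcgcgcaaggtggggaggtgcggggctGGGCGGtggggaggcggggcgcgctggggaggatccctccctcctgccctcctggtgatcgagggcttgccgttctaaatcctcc
Itgb1: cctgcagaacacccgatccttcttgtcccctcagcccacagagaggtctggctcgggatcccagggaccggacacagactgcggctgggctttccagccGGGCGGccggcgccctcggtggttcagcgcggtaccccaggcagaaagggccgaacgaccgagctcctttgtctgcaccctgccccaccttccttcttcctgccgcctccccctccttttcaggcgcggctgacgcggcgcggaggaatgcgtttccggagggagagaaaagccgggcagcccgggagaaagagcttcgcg
Windows were found for 6 of the 8 genes, 7 in all because Itga3 has a second one; Fn1 and Itga6 had none in the table. The Itga3 and Itgb1 windows printed are GC-rich, at 66.7% and 67.3%, with 24 and 27 CpG sites. GGGCGG on either strand, the letters of the GC box, occurred 3 times in the Itga3 window and 1 time in that of Itgb1, and 35.7% of 32851 promoter windows of this length hold it. AAGGTCA on either strand, the letters known for estrogen-related receptors such as Esrrb, occurred in none of the 7 windows and in 4.72% of all. No match overlapped another. These are descriptions of letters in the windows.

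Itgb1 (ENSMUSG00000025809, chromosome 8, 128685654 to 128733200) encodes the beta chain that Itga3, Itga5, Itga6 and Itga9 share. DOX libraries exp1_1, exp2_1 and exp1_2 had 70.1, 91.6 and 179 CPM. No DOX libraries exp1_1, exp1_2 and exp2_2 had 117, 117 and 127 CPM, and 2iL libraries had 104, 83.3, 87.2 and 85.8 CPM. With DOX, exp1_2 was the highest of all 10 libraries, and exp1_1 was the lowest. The means were 114 ± 57.7 CPM with DOX (80.8 ± 15.2 CPM without exp1_2), 120.2 ± 5.78 CPM without DOX and 90.1 ± 9.53 CPM in 2iL.

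No Itgb1 difference passed. DOX over no DOX was -0.10 ± 0.28 (95% interval -0.69 to 0.48, adjusted p = 0.910, edgeR). Without exp1_2 it was -0.58 (adjusted p = 0.260, edgeR), and both remaining DOX libraries then lay below the no DOX range, as did 13.4% of tested genes. The direction turned when exp1_1 of the DOX group was left out instead, to 0.17. No DOX over 2iL was 0.42 ± 0.26 (95% interval -0.13 to 0.96, adjusted p = 0.308, edgeR). The no DOX libraries lay wholly above 2iL there, as did 16.1% of tested genes. DOX over 2iL was 0.31 ± 0.26 (95% interval -0.23 to 0.86, adjusted p = 0.467, edgeR) and turned to -0.16 without exp1_2 (adjusted p = 0.711, edgeR). Together the intervals reach from -0.69 to 0.96, so equal levels were not shown.

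Because Itga3 and Itga6 chains reach the surface only in a pair with a beta chain, their reads were also set against those of Itgb1 within each library, a ratio that library scaling does not touch. These ratios were chosen after the values had been seen. Itga6 had 4.11, 2.55 and 1.46 reads per Itgb1 read in the DOX libraries exp1_1, exp2_1 and exp1_2, against 1.02, 1.57 and 1.07 in the no DOX libraries exp1_1, exp1_2 and exp2_2. In 2iL the ratio was 0.997, 0.860, 0.750 and 0.866. The 2 DOX libraries other than exp1_2 stood above all others, and exp1_2 fell inside the no DOX range. An exact two-sided permutation test of the log2 ratio gave p = 0.2 for DOX against no DOX (smallest possible 0.1), 0.0286 for DOX against 2iL (smallest possible 0.0286) and 0.0571 for no DOX against 2iL. Adjusted over the 15 ratio tests run, these were 0.25, 0.0612 and 0.107.

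Itga3 had 0.431, 0.161 and 0.235 reads per Itgb1 read with DOX, 0.105, 0.146 and 0.116 without DOX, and 0.0160 to 0.0317 in 2iL. All 3 groups were apart in this ratio, with DOX highest. Exact two-sided permutation p was 0.1 for DOX against no DOX and 0.0286 for each 96 h group against 2iL, in each case the smallest possible (0.15 and 0.0612 adjusted over the 15 tests). In the DOX library exp2_1, Itga3 itself lay inside the no DOX range, at 14.8 CPM against 12.3 to 17.0 CPM. Its Itgb1 was lower, at 91.6 CPM against 117 to 127 CPM, so the ratio does not show higher Itga3 with DOX in every library. Per Itga6 read, Itga3 had 0.105, 0.0632 and 0.161 reads with DOX, 0.104, 0.0933 and 0.108 without DOX, and 0.0160, 0.0367, 0.0423 and 0.0299 in 2iL. So Itga3 made up more of the laminin-receptor alpha reads at 96 h than in 2iL in every library, while the DOX and no DOX ranges overlapped (exact p = 0.9). Fn1 per Itgb1 read was 1.13, 0.983 and 1.37 with DOX, 0.722, 0.701 and 0.681 without DOX, and 2.62 to 4.17 in 2iL. Here exp1_2 was close to the other DOX libraries, and the DOX and no DOX groups were apart (exact p = 0.1, the smallest possible, and 0.15 adjusted). In exp1_2 both genes were high. The other DOX libraries had lower Itgb1 than the no DOX libraries, at 70.1 and 91.6 CPM against 117 to 127 CPM. Without exp1_2 the log2 fold change of DOX over no DOX was 0.00 for Fn1 and -0.58 for Itgb1. Outside exp1_2 the ratio thus shows no higher Fn1 with DOX.

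**Figure D3:**
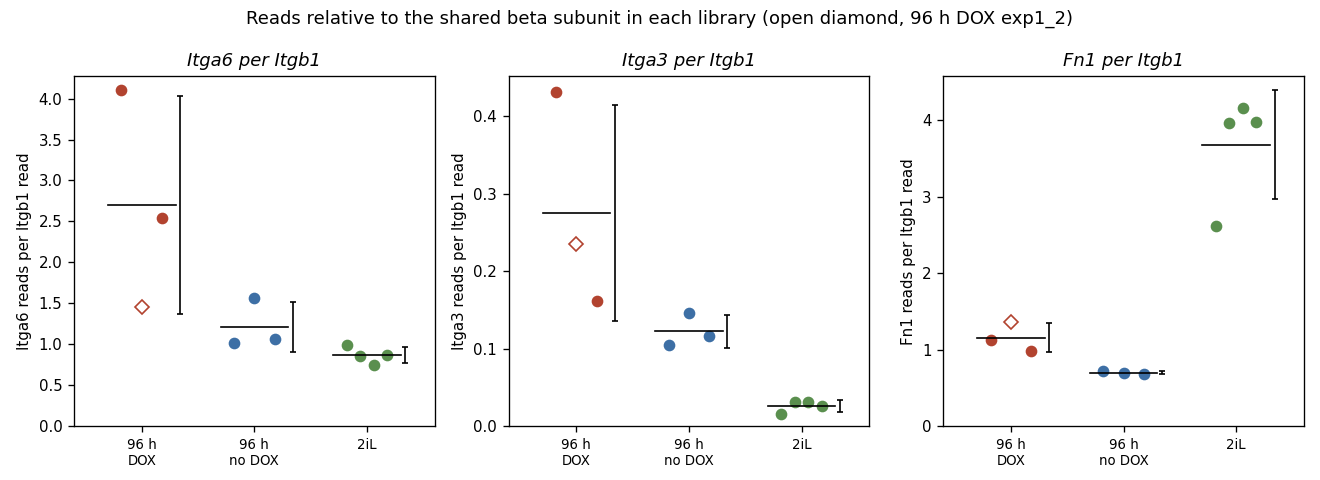
Reads of Itga6, Itga3 and Fn1 per read of Itgb1 are plotted for each library, with group means as lines and ± SD as bars. The open diamond is 96 h DOX exp1_2. Itga6 per Itgb1 is 4.11 and 2.55 in the other DOX libraries and at most 1.57 without DOX, and Fn1 per Itgb1 lies between 2.62 and 4.17 in 2iL and at most 1.37 at 96 h.

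Itgav (ENSMUSG00000027087, chromosome 2, 83724397 to 83806916), the alpha chain of RGD-binding receptors, had 17.6, 7.38 and 14.7 CPM with DOX in exp1_1, exp2_1 and exp1_2. Without DOX it had 6.46, 17.9 and 4.99 CPM in exp1_1, exp1_2 and exp2_2, and in 2iL 15.0, 21.9, 28.3 and 10.4 CPM. The 3 groups overlapped, and libraries of 1 group differed as much as the groups. Means were 13.2 ± 5.27 CPM with DOX (12.5 ± 7.22 CPM without exp1_2), 9.78 ± 7.07 CPM without DOX and 18.9 ± 7.86 CPM in 2iL. Log2 fold changes were 0.41 ± 0.51 for DOX over no DOX (95% interval -0.65 to 1.47, adjusted p = 0.764, edgeR) and -0.52 ± 0.47 for DOX over 2iL (95% interval -1.51 to 0.47, adjusted p = 0.508, edgeR). No DOX over 2iL gave -0.93 ± 0.47 (95% interval -1.91 to 0.05, adjusted p = 0.191, edgeR). It passed without the no DOX library exp1_2 (-1.72, adjusted p = 0.0289, edgeR), the highest of its group, and over 20 alternatives the adjusted p ran up to 0.590.

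Itgb5 (ENSMUSG00000022817, chromosome 16, 33829665 to 33949338), the beta chain that joins Itgav in a vitronectin receptor, was at 7.84, 4.61 and 12.5 CPM with DOX. It was at 10.9, 8.19 and 14.7 CPM without DOX and at 9.32, 9.94, 7.37 and 9.24 CPM in 2iL. With all libraries the 3 ranges overlapped, around means of 8.33 ± 3.98 CPM with DOX (6.23 ± 2.29 CPM without exp1_2), 11.2 ± 3.26 CPM without DOX and 8.97 ± 1.11 CPM in 2iL. DOX over no DOX was -0.48 ± 0.47 (95% interval -1.47 to 0.50, adjusted p = 0.683, edgeR) and -0.84 without exp1_2 (adjusted p = 0.576, edgeR). Both remaining DOX libraries then lay below the no DOX range, as did 13.4% of tested genes. DOX over 2iL was -0.16 ± 0.45 (95% interval -1.10 to 0.78, adjusted p = 0.852, edgeR), and no DOX over 2iL was 0.32 ± 0.43 (95% interval -0.57 to 1.22, adjusted p = 0.684, edgeR). The widest of these intervals spans changes down to -1.47, so no difference was detectable and equal levels were not shown.

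Itga5 (ENSMUSG00000000555, chromosome 15, 103344286 to 103366763, minus strand), the alpha chain of the main fibronectin receptor, was close to the detection limit. It had 6, 7 and 5 reads in the DOX libraries exp1_1, exp2_1 and exp1_2, 3, 2 and 2 reads in the no DOX libraries, and 0, 5, 0 and 10 reads in 2iL. In CPM, the DOX libraries had 1.43, 2.15 and 3.68, all above the no DOX libraries at 0.881, 0.431 and 0.588, while 2iL spanned both. The 2 libraries at 0 allow up to 0.908 CPM each (3 counts). From the reads summed over each group, without TMM scaling, it stood at 2.14 CPM with DOX (exact 95% Poisson interval 1.27 to 3.38), 0.605 CPM without DOX (0.243 to 1.25) and 1.16 CPM in 2iL (0.648 to 1.91). These intervals cover counting error only, and the 2iL libraries differed from each other by more than that. With no filter on counts, the log2 fold change of DOX over no DOX was 1.82 and did not pass (adjusted p = 0.623, edgeR, 18318 genes).

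Itga9 (ENSMUSG00000039115, chromosome 9, 118606690 to 118901003), which pairs with Itgb1 into a tenascin and osteopontin receptor, had 18, 10 and 1 reads with DOX, 9, 12 and 8 without DOX, and 7, 9, 5 and 4 in 2iL. The single read was in exp1_2, and in CPM the other DOX libraries, at 4.28 and 3.07, were above the no DOX libraries at 2.64, 2.59 and 2.35. Of all tested genes, 14.1% lay wholly above no DOX when exp1_2 was left out. Itga9 passed the count filter in that fit and was not called. Its log2 fold change was 0.54 for DOX over no DOX (adjusted p = 0.896, edgeR) and 0.87 for DOX over 2iL (adjusted p = 0.588, edgeR). Group sums gave 3.44 CPM with DOX (exact 95% Poisson interval 2.31 to 4.94), 2.51 CPM without DOX (1.68 to 3.60) and 1.93 CPM in 2iL (1.25 to 2.85), which overlap. Its end overlaps the antisense gene Gm2415, and whether counting used strand is not stated in the labels. How reads in the overlap were assigned is thus not known, and the Itga9 count may be affected.

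Counted over the 6 tested genes, 0 were called between DOX and no DOX, where 3.1% of all tested genes were. Itga6 was the 1 gene wholly above no DOX, and 0 were wholly below (8.74% of all tested genes). Fn1, Itga3 and Itga6 had an unadjusted p below 0.05 there with edgeR, and DESeq2 called 1, Itga6. For DOX over 2iL, 2 rose and 1 fell, beside 9.84% and 6.83% of all tested genes. For no DOX over 2iL the counts were again 2 and 1, beside 11.5% and 8.9% (20.4% in either direction, against 16.7% for DOX over 2iL). Leaving out exp1_2 changed none of the counts of called genes: 0 for DOX over no DOX (1.61% of all tested genes higher and 0.627% lower), 2 and 1 for DOX over 2iL (7.71% and 5.78%), and 2 and 1 for no DOX over 2iL (12.8% and 10.6%). Without it, Itga3 and Itga6 also lay wholly above 2iL with DOX and Fn1 wholly below, as did 19.1% and 17.8% of tested genes. Against no DOX, Itga6 again lay wholly above (14.1% of tested genes), and Itgb1 and Itgb5 then lay wholly below (13.4%), where none did with all libraries. The comparisons share the 2iL libraries, so the equal counts are not independent.

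**Figure D4:**
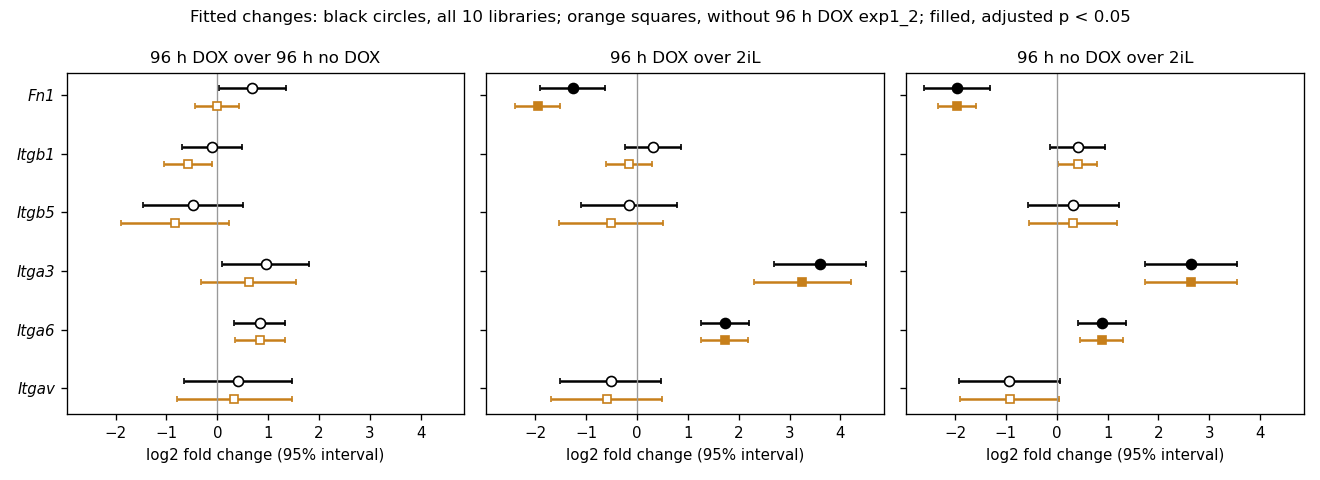
Fitted log2 fold changes of the 6 tested genes with 95% intervals are drawn for DOX over no DOX, DOX over 2iL and no DOX over 2iL. Black circles use all 10 libraries and orange squares leave out 96 h DOX exp1_2, and filled symbols have an adjusted p below 0.05. Fn1 moves most when that library is left out, from 0.69 to 0.00 in the left panel, while Itga6 stays at 0.84.

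Titles name 2 experiments, and the changes were also fitted within each. For DOX over 2iL, Fn1 had -0.92 in experiment 1 and -1.97 in experiment 2, Itga3 had 4.02 and 2.54, and Itga6 had 1.65 and 1.74. For no DOX over 2iL, Fn1 had -1.86 and -2.03, Itga3 had 2.74 and 2.53, and Itga6 had 0.78 and 0.96. These 3 genes kept their direction in both experiments. For DOX over no DOX, Fn1 had 0.94 and 0.06, Itgb1 0.07 and -0.47, Itgb5 0.05 and -1.66, and Itgav 0.40 and 0.56. The test of the difference between experiments passed for no listed gene (adjusted p 0.744 to 0.998, edgeR), and over all genes it called 0, 0 and 1 (unadjusted p below 0.05 for 614, 721 and 854) for DOX over no DOX, DOX over 2iL and no DOX over 2iL. Each 96 h group has 1 library in experiment 2, which left 4 residual degrees of freedom.

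Across the 10 libraries, Itga3 and Itga6 moved together (Pearson r = 0.906 on log2(CPM + 1)), and Fn1 ran against them (r = -0.70 with Itga3 and -0.68 with Itga6). Itgb1 followed Itgb5 (r = 0.577) more than it followed Itga3 (0.444) or Itga6 (0.292). The 10 points fall into the 3 groups, so these values describe group differences as well as libraries. Among 7707 genes with at least 10 CPM on average, the patterns most like that of Fn1 were those of Apod, an apolipoprotein (r = 0.967), H2afy, a histone variant (0.967), and Kank2, an adhesion adaptor (0.966). Closest to Itga3 were Ncoa7, a nuclear receptor coactivator (r = 0.986), Sycp3, a meiotic chromosome protein (0.973), and Dnmt3a, a DNA methyltransferase (0.973). Dnmt3a was also closest to Itga6 (r = 0.945), followed by Prss50, a testis protease (0.945). Dnmt3a averaged 741 ± 186 CPM with DOX, 260.2 ± 38.3 CPM without DOX and 30.1 ± 7.11 CPM in 2iL, in the order of Itga6 and Itga3.

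Of 19 other integrin subunit genes, 2 passed the filter. Itga1, an alpha chain of collagen and laminin receptors, was called higher in both comparisons with 2iL. Beside it, 9.84% of all tested genes were called higher with DOX and 11.5% without. No other subunit was called with all libraries. Without exp1_2, 3 were tested, and no DOX over 2iL gave 1 up and 1 down, beside 12.8% and 10.6% of all tested genes. DOX over 2iL then gave 1 up and 0 down, beside 7.71% and 5.78%. It had 20, 10 and 14 reads with DOX in exp1_1, exp2_1 and exp1_2, 12, 12 and 6 without DOX, and 0 in all 4 2iL libraries. Set against 3 counts over the 2iL group, its mean was 24.96-fold higher with DOX (16.2-fold without exp1_2, its highest library) and 10.8-fold higher without DOX. These ratios leave out counting error in the 96 h reads. Like Itga3 and Itga6, it was higher in every 96 h library than in any 2iL library. Of all tested genes, 14.3% with DOX and 16.1% without DOX lay wholly above 2iL. Itga1 passed the filter on its 96 h reads alone.

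The matrix ligands of these receptors were described from a list of 39 genes without Fn1, 24 of which were tested. With DOX over no DOX, 6 rose and 0 fell (2.16% and 0.945% of all tested genes), and the list's median log2 fold change was 0.71, against -0.02 over all tested genes. Those that rose were the type IV collagen chains Col4a2 (3.90) and Col4a1 (3.55), the nidogens Nid1 (3.45) and Nid2 (1.48), the laminin alpha chain Lama1 (2.42) and Spp1, which encodes osteopontin (2.25). Without exp1_2 the count was again 6 and 0. Lama1, a ligand chain of the Itga6 receptor, averaged 31.0 ± 16.6 CPM with DOX (21.4 ± 2.01 CPM without exp1_2), 5.64 ± 0.403 CPM without DOX and 16.1 ± 6.37 CPM in 2iL. Col4a1 and Lama1 are also on the list of extraembryonic endoderm markers, of which 8 of 9 tested rose with DOX over no DOX (5 without exp1_2). What those cells add to the ligand levels was not tested.

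Without DOX over 2iL, 4 of the 24 ligand genes rose and 10 fell, beside 11.5% and 8.9% of all tested genes (list median -0.59, all genes 0.00). Rising were the thrombospondin gene Thbs2, the fibrillin gene Fbn1, Col4a1 and the laminin beta chain Lamb1, which averaged 82.6 ± 11.1 CPM against 21.0 ± 11.8 CPM in 2iL. Among the 10 that fell with Fn1 were Nid1 (-4.20), Spp1 (-3.36) and Icam1, a ligand of leukocyte integrins (-2.21). With DOX over 2iL, 6 rose and 4 fell, beside 9.84% and 6.83% (5 and 6 without exp1_2; list median -0.23, all genes 0.02). Spp1, a ligand of Itgav and Itga9 receptors, had 40.1 ± 17.9 CPM with DOX (30.4 ± 8.33 CPM without exp1_2), 8.15 ± 2.24 CPM without DOX and 84.7 ± 16.7 CPM in 2iL.

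**Figure D5:**
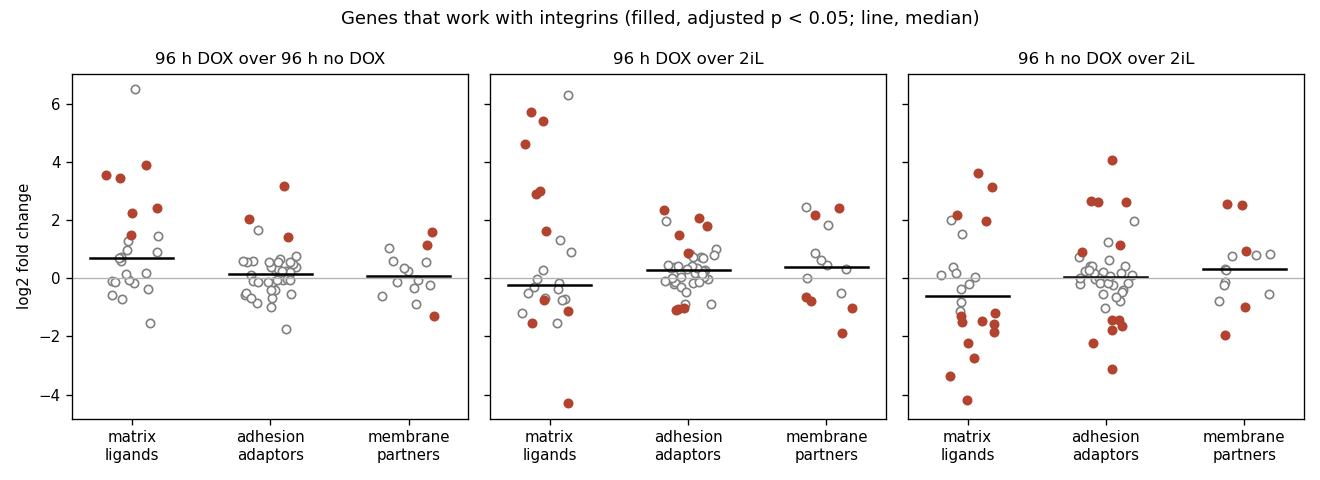
Each point is 1 tested gene of the lists of matrix ligands, adhesion adaptors and membrane partners, at its fitted log2 fold change, in 3 comparisons. Filled points have an adjusted p below 0.05 and lines are list medians. In DOX over no DOX the ligand median is 0.71 with 6 filled points above 0, and in no DOX over 2iL it is -0.59 with 10 filled points below 0.

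Adaptors that link integrin tails to actin (44 genes, 40 tested) had medians of 0.16 for DOX over no DOX, 0.28 for DOX over 2iL and 0.04 for no DOX over 2iL. Over all tested genes the medians were -0.02, 0.02 and 0.00. Without exp1_2 the list medians were 0.02, 0.10 and 0.04, against -0.03, -0.01 and 0.01 over all tested genes. With DOX over no DOX, 3 rose and 0 fell, beside 2.16% and 0.945% of all tested genes. They were Parvb, a parvin that binds integrin-linked kinase (2.03), and the tensins Tns1 (3.16) and Tns3 (1.44). Without exp1_2 that count was 2, since Tns1 no longer passed (adjusted p = 0.189, edgeR). Parvb averaged 21.5 ± 6.37 CPM with DOX, 5.28 ± 1.79 CPM without DOX and 24.9 ± 6.13 CPM in 2iL, so the no DOX group had the lowest mean. For no DOX over 2iL, 6 rose and 6 fell, beside 11.5% and 8.9%, led by Fermt1, a kindlin that activates integrins (4.07), the scaffold gene Bcar1 (2.66) and the zyxin gene Zyx (2.64) among those that rose and by Tns1 (-3.11) and Parvb (-2.24) among those that fell. With DOX over 2iL, 5 rose and 3 fell, beside 9.84% and 6.83% (4 and 3 without exp1_2). Leaving out exp1_2 in the shared fit gave 7 up and 9 down for no DOX over 2iL, beside 12.8% and 10.6%.

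Membrane partners of integrins (18 genes, 14 tested) gave 2 up and 1 down for DOX over no DOX, beside 2.16% and 0.945% of all tested genes, with a median of 0.09. Cd9, a tetraspanin that associates with Itga3 and Itga6 receptors, rose by 1.16 and Emp2, a tetraspan membrane protein, by 1.59, and the syndecan Sdc1 fell by 1.30, which did not pass without exp1_2 (adjusted p = 0.107, edgeR). Cd9 had 73.4 ± 22.1 CPM with DOX, 32.9 ± 2.79 CPM without DOX and 128 ± 19.5 CPM in 2iL, an order unlike that of Itga6. For no DOX over 2iL, 3 rose and 2 fell (4 without exp1_2 in the shared fit), beside 11.5% and 8.9% of all tested genes, among them the epithelial adhesion gene Epcam (2.54) and Cd9 (-1.96). With DOX over 2iL, 2 rose and 4 fell, beside 9.84% and 6.83% (2 and 2 without exp1_2).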

How the data were processed

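RNA of E14 ES cells was measured in 10 libraries: 96 h DOX (n = 3), 96 h no DOX (n = 3) and 2iL (n = 4), as the titles name them. The authors deposited counts per gene, made with STAR 2.6.0a on mm10 and HTSeq, per the submitters' processing notes. The sources used here give neither annotation release nor strand setting. The 5 HTSeq summary lines, which held 62.7% to 68.4% of all reads (mostly reads with several alignments, 56.4% to 62.4%), stayed out of all totals. Reads in genes with near-identical copies may thus be missing. The deposited CPM table was not used here.

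Symbols were attached by Ensembl ID (30934 of 31053 matched), positions came from GENCODE vM21. The filter was filterByExpr by group (minimum count 10). Counts were scaled by TMM (factors 0.911 to 1.09) and fitted in edgeR 4.0.16 (R 4.3.3) by a robust quasi-likelihood model with a mean per group over the 10 libraries, and contrasts were adjusted by Benjamini-Hochberg over 11215 genes. SE is the log2 fold change divided by the root of F. Marker sums are CPM without TMM scaling. Similar patterns are the 3 tested genes with the highest Pearson r on log2(CPM + 1), given for genes called in at least 1 comparison. Genes named from lists are called ones, at most 6 per direction for DOX over no DOX and at most 4 otherwise. Among the genes these rules pick, 2 are not reported here. The scripts were tested on simulated data. The 8 genes, the lists and the tests were chosen with earlier results of these data known.

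Alternatives were other scalings and filters, DESeq2 1.42.0, limma 3.58.1, only the compared groups, experiment 1 alone, a replicate block, and leaving out each library. Depth limits genes of few reads, and counting intervals cover counting error only. Macrophage, endothelium, naive and early neural markers were also summed: 9.30 to 67.0, 20.3 to 26.3, 722 to 834 and 48.7 to 97.3 CPM with DOX, 8.33 to 31.2, 12.8 to 14.4, 282 to 347 and 274 to 421 CPM without DOX, and 10.1 to 27.0, 34.8 to 73.3, 1998 to 2164 and 32.1 to 43.6 CPM in 2iL.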

Additional observations from a re-analysis of the deposited data

How the results depend on the processing

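Each fold change of the 6 tested genes was recomputed under 20 alternatives per comparison, 360 in all. Of these, 345 kept their direction and their side of the threshold, 3 lost the call, 4 gained it and 8 turned direction. The calls of Itga3 and Itga6 for DOX over 2iL, and of Itga3 and Fn1 for no DOX over 2iL, held under all 20.

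The 348 genes called for DOX over no DOX became 564 with no filter on low counts, 563 with DESeq2, 212 with only the 2 compared groups, 108 within experiment 1 and 161 to 358 when a library was left out, 161 without the no DOX library exp1_1 and 181 without exp2_2. With a replicate block by experiment and library number, 159 were called, and no listed gene changed its call. Libraries of the same number deviated together only weakly (correlations of -0.10 to 0.23), so the numbers are not taken to pair them. Within experiment 1, 1226 genes were called for no DOX over 2iL and 926 for DOX over 2iL.

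For DOX over no DOX, 1 listed gene was called with upper quartile scaling, with DESeq2 and in 1 case of leaving out a library (range 0 to 1). That gene was Itga6, at 0.89 and 0.84, and 0.71 to 1.04 over the libraries left out. For no DOX over 2iL, Itga6 had 0.77 within experiment 1 and 0.69 to 1.05 when leaving out libraries, and Itgav -1.72 to -0.62. Fn1 for DOX over 2iL had -0.90 within experiment 1.

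The directions that turned belonged to the uncalled beta chains. Itgb1 for DOX over no DOX was 0.10 within experiment 1, 0.17 and 0.04 without the DOX libraries exp1_1 and exp2_1, and -0.58 to 0.17 over all libraries left out. Itgb1 for DOX over 2iL was -0.16 without exp1_2, and -0.16 to 0.60 over all libraries left out. Itgb5 within experiment 1 was 0.081 for DOX over no DOX, -0.033 for no DOX over 2iL and 0.048 for DOX over 2iL, and for DOX over 2iL it was 0.15 without the DOX library exp2_1 (-0.52 to 0.15 over all libraries left out). The cause of these changes was not tested.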
